A study of Mus musculus with 6 samples.

Results

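The angiopoietin and Tie receptor genes were followed in RNA of whole mouse retina at postnatal day 17. The group holds 7 genes, chosen by their symbols: the ligand genes Angpt1 and Angpt2, the receptor genes Tek and Tie1, the receptor phosphatase gene Ptprb, and the angiopoietin-like genes Angptl2 and Angptl4. All 7 were among the 22173 genes listed for each library. The study compared 3 libraries from pups with oxygen-induced retinopathy (OIR) with 3 Control libraries. OIR pups were wild-type C57BL/6J mice held in 75% oxygen from postnatal day 7 to day 12 and then in room air to day 17. Control pups were wild-type C57BL/6J mice held in room air over the same days. The series asks which retinal genes differ while abnormal vessels grow. Nothing in the labels ties a library to its own animal, and p-values therefore cover only the spread among these 6 samples, some of which may be technical.

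Angiopoietin-1, the Angpt1 product, is made by pericytes and other perivascular cells and switches on TIE2, the endothelial receptor tyrosine kinase encoded by Tek, which keeps vessels quiet and tight. Angiopoietin-2 is made by endothelial cells among others and binds the same receptor as a weak or context-dependent activator. It is known for loosening vessels during sprouting and in hypoxic retina. TIE1 is a related endothelial receptor that pairs with TIE2 and modulates its signal, and the phosphatase VE-PTP, encoded by Ptprb, removes phosphate from TIE2. Oxygen exposure in the OIR model stops and reverses retinal vessel growth, and once the pups are back in room air the poorly perfused retina lacks oxygen and abnormal vessels form.

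The values are RPKM, which scale reads for gene length and library size, so levels can be set side by side between genes. Steps between low values, together with GENCODE M21 transcript lengths, gave 35615501 to 38025623 reads per library. Lens genes made up 0.556% of reads in OIR 2 and 6.41% in Control 3, against 0.0150% to 0.0585% in the other libraries, so results are also given without these 2 libraries. Of 12112 genes tested with limma, 1407 were higher in OIR, which is 11.6%, and 875 were lower, which is 7.22%, together 18.8%. With median-of-ratios scaling 1283 were higher and 1312 lower. These counts were 513 higher and 212 lower without OIR 1, 697 and 348 without OIR 3, 658 and 265 without Control 1, 941 and 421 without Control 2, and 2094 and 1943 without both lens-rich libraries. Markers of endothelial, mural, glial and rod cells were detected in both groups. Fewer cells of a type and less RNA per cell cannot be told apart in whole retina.

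Tie1, Angpt2, Angptl2 and Angptl4 rose in OIR, while Tek and Ptprb did not pass the test and Angpt1 was at the lowest level of the 7 genes in both groups. Higher in OIR were 4 of the 6 genes that could be tested, against 11.6% of all tested genes, and none was lower, against 7.22%. The count higher was 2 without OIR 1 and 1 without Control 1 or without Control 2, with Tie1 called each time. A gene was tested if it reached 1 RPKM in at least 3 libraries. Angpt1 stayed below this in every library, and Angptl4 reached it in the OIR libraries alone, so its count among the tested genes followed from its level there. The OIR and Control values did not overlap for 5 of the 7 genes, the 4 called higher and the untested Angpt1. Among the tested genes alone this was 4 of 6, Angptl4 included. The share over all tested genes was 38.7% (23.6% with OIR higher and 15% with OIR lower).

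**Figure D1:**
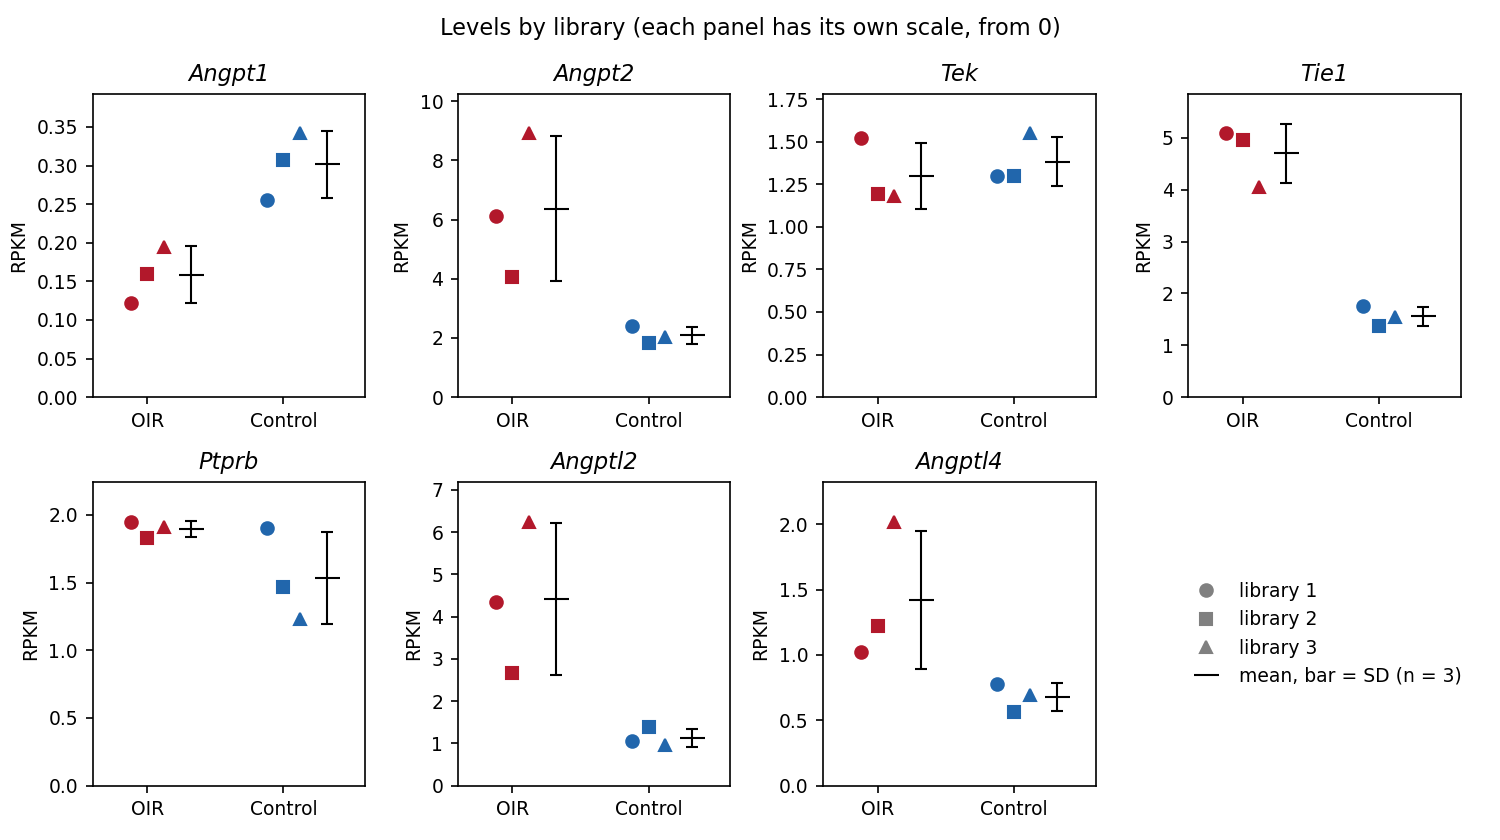
RPKM of the 7 genes in each of the 3 OIR (red, left) and 3 Control (blue, right) libraries, with the group mean and SD beside the points and a separate scale from 0 in each panel. Tie1 sits at 4.05 to 5.09 RPKM in OIR and at 1.37 to 1.75 RPKM in Control, while the Tek points of both groups share the range from 1.18 to 1.55 RPKM.

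Of the ligand genes, Angpt2 was at 6.13 RPKM in OIR 1, 4.06 in OIR 2 and 8.92 in OIR 3, against 2.41, 1.82 and 2.02 RPKM in Control 1, Control 2 and Control 3. All OIR libraries lay above all Control libraries, and the OIR libraries differed from each other by more than the Control libraries did. The means were 6.37 ± 2.44 RPKM in OIR and 2.08 ± 0.3 RPKM in Control (SD, n = 3 each), a ratio of 3.06. On the log2(RPKM + 1) scale, on which changes of low genes come out too small, the log2 fold change was 1.21 (SE 0.246) at an adjusted p of 0.0248. The limma call was lost when OIR 1, Control 1 or Control 2 was left out (adjusted p 0.115, 0.0762 and 0.0914) and with limma-voom on recovered reads, at 0.0508. The log2 fold change was 0.97 to 1.55 in every fit run. Angpt2 lies inside the gene Mcph1 on the opposite strand in the GENCODE M21 annotation with no shared exon, and strand treatment is not given in the sources used here. Mcph1 was at 0.410 ± 0.0220 RPKM in OIR and 0.461 ± 0.0556 RPKM in Control.

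Angpt1, the activating ligand, was at 0.122, 0.159 and 0.195 RPKM in OIR 1, OIR 2 and OIR 3, against 0.256, 0.307 and 0.342 RPKM in Control 1, Control 2 and Control 3. Every OIR library lay below every Control library, at 17 to 28 reads per OIR library and 36 to 46 reads per Control library. The means were 0.159 ± 0.0366 RPKM in OIR and 0.302 ± 0.0431 RPKM in Control (SD, n = 3 each), a ratio of 0.526. In the limma fit with no filter the log2 fold change was -0.17, with an adjusted p of 0.0474, and 2.95% of the 17953 genes in that fit were lower in OIR by the same rule. The call did not hold in the limma fit with a filter of 0.1 RPKM, at an adjusted p of 0.108, or in limma-voom on recovered reads of genes with at least 10 reads, at 0.112 and a log2 fold change of -0.92 without a pseudocount of 1. These read numbers leave the Angpt1 call dependent on the fit. An exon of Angpt1 overlaps the antisense gene model Gm17473 in GENCODE M21, so reads of both cannot be told apart without strand.

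Within each library, the ratio of Angpt2 to Angpt1 was 50.3 in OIR 1, 25.5 in OIR 2 and 45.8 in OIR 3, against 9.4, 5.92 and 5.9 in Control 1, Control 2 and Control 3. The ranges did not overlap. Mean log2 ratios were 5.28 ± 0.53 in OIR and 2.79 ± 0.39 in Control (SD, n = 3 each), a difference of 2.49 or 5.63-fold. The exact two-sided permutation test over libraries gave p = 0.10, the smallest value that 3 against 3 libraries allow. With each library left out in turn the difference stayed between 2.31 and 2.80, and without both lens-rich libraries it was 2.69. It was 2.15 with a pseudocount of 0.1 and 1.38 with 1.

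**Figure D2:**
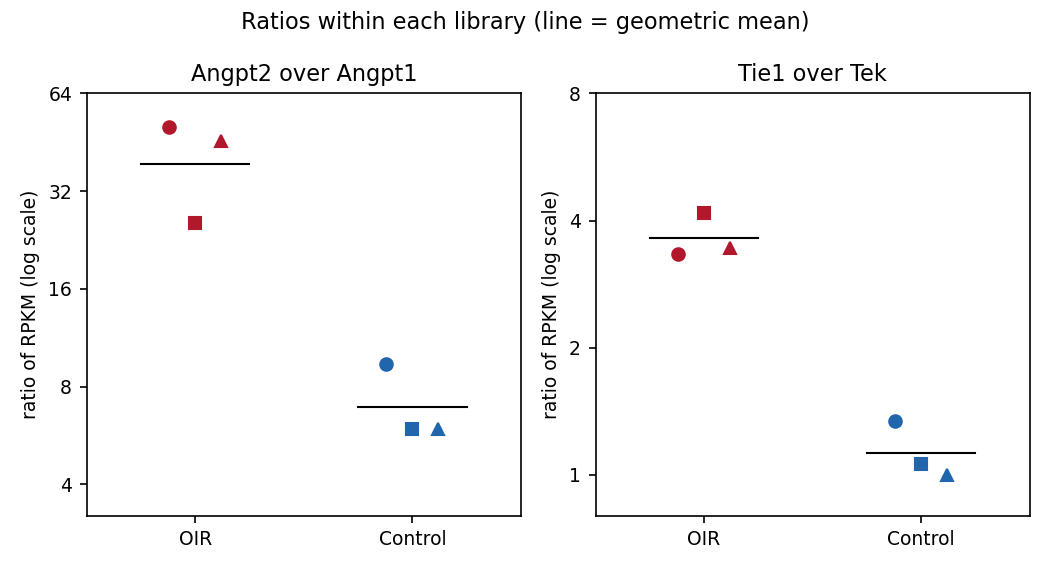
Ratio of RPKM within each library, on a log axis, for Angpt2 over Angpt1 (left panel) and Tie1 over Tek (right panel), with OIR in red left of Control in blue and the geometric mean as a line. The Angpt2 to Angpt1 ratio is 25.5 to 50.3 in OIR and 5.9 to 9.4 in Control, and the Tie1 to Tek ratio is 3.34 to 4.17 in OIR and 1 to 1.34 in Control.

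The receptor genes parted. Tie1 was at 5.09, 4.96 and 4.05 RPKM in OIR 1, OIR 2 and OIR 3, against 1.75, 1.37 and 1.55 RPKM in Control 1, Control 2 and Control 3. The OIR and Control libraries were well separated, and the spread within each group was small beside the gap. Mean levels were 4.70 ± 0.563 RPKM in OIR and 1.55 ± 0.189 RPKM in Control (SD, n = 3 each), a ratio of 3.02. The log2 fold change was 1.16 (SE 0.0988) at an adjusted p of 0.000111, and this call held in every fit run, at log2 fold changes from 1.10 to 1.59.

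Tek was at 1.52, 1.19 and 1.18 RPKM in OIR 1, OIR 2 and OIR 3, against 1.30, 1.30 and 1.55 RPKM in Control 1, Control 2 and Control 3. The groups overlapped, with the highest value in a Control library and the next in an OIR library. Averages were 1.30 ± 0.195 RPKM in OIR and 1.38 ± 0.143 RPKM in Control (SD, n = 3 each). The log2 fold change was -0.05, with a 95% interval from -0.26 to 0.16 and an adjusted p of 0.737, and its sign turned without both lens-rich libraries, at 0.03. Between 214 and 276 reads per library lay behind these values.

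After the divergence of the receptors was seen, their ratio was formed within each library. Tie1 over Tek was 3.34, 4.17 and 3.44 in OIR 1, OIR 2 and OIR 3, against 1.34, 1.06 and 1 in Control 1, Control 2 and Control 3. Tie1 was thus close to Tek in Control and above it in every OIR library. The difference in log2 ratio was 1.69, or 3.23-fold, with an exact two-sided permutation p of 0.10, the smallest possible here.

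Ptprb, the gene of the TIE2 phosphatase, was at 1.95, 1.83 and 1.91 RPKM in OIR 1, OIR 2 and OIR 3, against 1.90, 1.47 and 1.23 RPKM in Control 1, Control 2 and Control 3. OIR libraries were alike, Control libraries were spread out, and Control 1 lay inside the OIR range. Mean levels were 1.90 ± 0.0611 RPKM in OIR and 1.53 ± 0.336 RPKM in Control (SD, n = 3 each). The log2 fold change was 0.20, with a 95% interval from -0.03 to 0.43 and an adjusted p of 0.200. Its reads numbered 576 to 954 per library, more than for Tek at a similar RPKM, as its gene model is longer.

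The proximal promoters of Tie1 and Tek are shown because these related receptor genes differed in their values, and that of Angptl2 because its values rose. RefSeq promoter entries were matched by symbol for 3 of the 7 genes. Each line gives the 250 bases before the listed start, 5′ to 3′ on the gene's strand, in build GRCm38.p6: Tie1 from chr4:118489850-118490099 on the minus strand, Tek from chr4:94739039-94739288 on the plus strand and Angptl2 from chr2:33215711-33215960 on the plus strand. Capitals mark the ETS-type motif AGGAAG or its reverse complement CTTCCT.
Tie1: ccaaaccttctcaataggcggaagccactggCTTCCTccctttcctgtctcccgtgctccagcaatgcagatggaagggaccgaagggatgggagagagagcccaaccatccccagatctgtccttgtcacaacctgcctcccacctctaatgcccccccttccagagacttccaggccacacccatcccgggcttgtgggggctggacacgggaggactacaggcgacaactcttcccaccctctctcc
Tek: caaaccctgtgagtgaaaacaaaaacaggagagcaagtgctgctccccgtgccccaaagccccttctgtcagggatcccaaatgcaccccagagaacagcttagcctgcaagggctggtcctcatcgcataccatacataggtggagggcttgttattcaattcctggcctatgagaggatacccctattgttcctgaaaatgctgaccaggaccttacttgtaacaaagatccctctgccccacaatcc
Angptl2: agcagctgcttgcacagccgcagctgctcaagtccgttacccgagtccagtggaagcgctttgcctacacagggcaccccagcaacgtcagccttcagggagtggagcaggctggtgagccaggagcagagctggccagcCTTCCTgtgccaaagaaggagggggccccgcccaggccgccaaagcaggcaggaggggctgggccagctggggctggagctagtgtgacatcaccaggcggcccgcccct
The motif AGGAAG was found on the opposite strand 1 time in the Tie1 window and 1 time in the Angptl2 window, and was not found in the Tek window. At least 1 copy on either strand is held by 29.5% of the 32851 promoter windows of this length, so a match is common. The hypoxia response cores ACGTG and GCGTG, held by 16.6% and 28.2% of all windows, the forkhead motif GTAAACA (3.17%), the GATA motif AGATAA (9.99%) and the octamer ATGCAAAT (1.6%) were searched on both strands and were not in these 3 windows. ACGTG overlaps the E-box CACGTG.

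The angiopoietin-like proteins resemble angiopoietins in structure but do not bind TIE2. Angptl2, which encodes a secreted protein linked to inflammation and matrix remodelling, was at 4.34 RPKM in OIR 1, 2.66 in OIR 2 and 6.25 in OIR 3, against 1.06, 1.38 and 0.967 RPKM in Control 1, Control 2 and Control 3. The groups did not overlap, and the OIR libraries stood in the same order as for Angpt2, with OIR 3 highest and OIR 2 lowest. Genes of other cell types, such as the red cell gene Hba-a1, shared this order. Means were 4.42 ± 1.80 RPKM in OIR and 1.14 ± 0.217 RPKM in Control (SD, n = 3 each), a ratio of 3.88 and the largest among the 7 genes. The log2 fold change was 1.29 (SE 0.248) at an adjusted p of 0.0201. Leaving out OIR 1, Control 1 or Control 2 ended this call, with adjusted p of 0.103, 0.0856 and 0.0577. Angptl2 lies inside Ralgps1 on the opposite strand with no shared exon, and Ralgps1 was at 13.5 ± 0.188 RPKM in OIR and 13.1 ± 0.284 RPKM in Control.

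Angptl4 encodes a lipase inhibitor that is induced by fasting and hypoxia and is known for raising vessel permeability in ischaemic retina. Its level was 1.02 RPKM in OIR 1, 1.22 in OIR 2 and 2.02 in OIR 3, against 0.777, 0.567 and 0.693 RPKM in Control 1, Control 2 and Control 3. The groups did not overlap, but OIR 1 and OIR 2 lay near the Control range and OIR 3 stood above both. Means were 1.42 ± 0.526 RPKM in OIR and 0.679 ± 0.106 RPKM in Control (SD, n = 3 each), a ratio of 2.09. On the log2(RPKM + 1) scale the log2 fold change was 0.51 (SE 0.140) at an adjusted p of 0.0311. Leaving out OIR 3 or any Control library ended the call, in the order OIR 3, Control 1, Control 2 and Control 3 at adjusted p of 0.0823, 0.0735, 0.0974 and 0.0777, with log2 fold changes of 0.34, 0.55, 0.46 and 0.51. Adjusted p was 0.0602 without both lens-rich libraries and 0.0759 with no filter. Only 40 to 146 reads per library lay behind it.

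In OIR, Angpt2, Tie1 and Angptl2 led the order of levels, at means of 6.37, 4.70 and 4.42 RPKM, and their ranges overlapped. Below them came Ptprb at 1.90, Angptl4 at 1.42, Tek at 1.30 and Angpt1 at 0.159 RPKM. The ranges of Angptl4 overlapped with those of Ptprb and Tek, while those of Ptprb and Tek did not overlap. In Control the order ran from Angpt2 at 2.08 over Tie1 at 1.55, Ptprb at 1.53, Tek at 1.38 and Angptl2 at 1.14 to Angptl4 at 0.679 and Angpt1 at 0.302 RPKM. Each of the first 5 in that order overlapped with its neighbour, except that Angpt2 and Tie1 did not, and Angptl4 and Angpt1 each stood apart.

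Endothelial marker genes were higher in OIR, so the 7 genes were also set against them. Of 15 tested endothelial markers 14 were higher and none lower, with a median log2 fold change of 0.97 against 0.03 over all tested genes, and 2 of the 14, Erg and Robo4, were tested through their OIR level alone, with every Control value below 1 RPKM. The summed level of all 16 markers was 140 to 154 RPKM in OIR and 75.0 to 81.6 RPKM in Control. Cd34, a surface protein gene of sprouting endothelium, had a log2 fold change of 1.41, Cdh5 (VE-cadherin) of 1.27, and the von Willebrand factor gene Vwf of 1.26, at adjusted p of 7.34e-06, 1.61e-05 and 1.61e-05. The mean log2 RPKM of the 15 markers was 2.78 ± 0.09 in OIR and 1.56 ± 0.02 in Control (SD, n = 3 each), a 2.33-fold difference of 1.22. Flt1, a VEGF receptor gene chosen for mention after its values were seen, was the marker that did not pass, at 6.05 ± 0.451 RPKM in OIR and 5.05 ± 0.522 RPKM in Control.

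**Figure D3:**
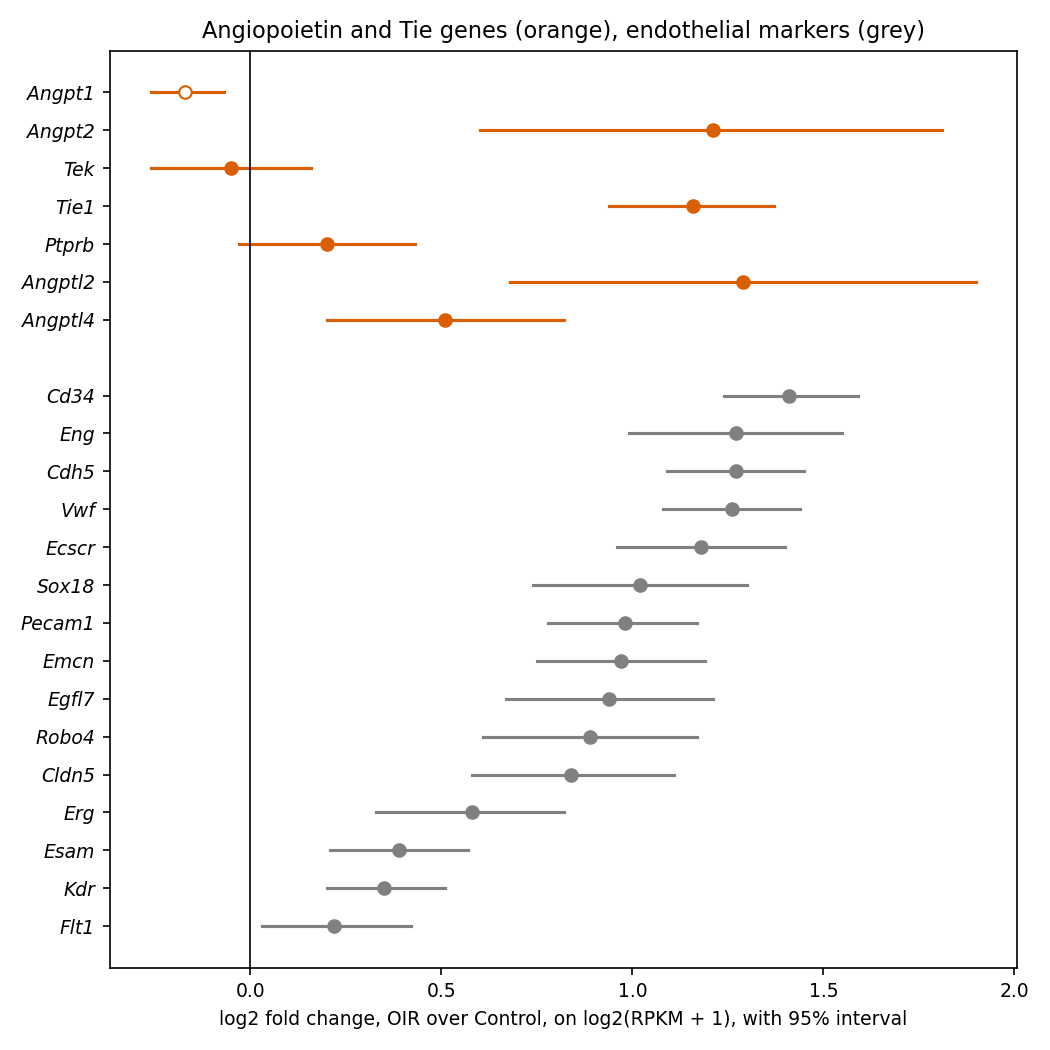
Log2 fold change of OIR over Control on the log2(RPKM + 1) scale with its 95% interval, for the 7 genes (orange) and the 15 tested endothelial markers (grey, sorted by size). The open point of Angpt1 is from the fit with no filter. Tie1 at 1.16 and Angpt2 at 1.21 lie among the markers, while Tek at -0.05 and Ptprb at 0.20 lie below all 15 on this scale. By the ratio of OIR to Control means, Ptprb at 1.24 is above the marker Flt1 at 1.20.

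Relative to the mean of these markers in the same library, Tek was lower in OIR than in Control. Its log2 RPKM minus the marker mean was -2.24, -2.43 and -2.58 in OIR 1, OIR 2 and OIR 3, against -1.19, -1.21 and -0.91 in Control 1, Control 2 and Control 3, a difference of -1.32. Ptprb gave -1.86 ± 0.04 in OIR and -0.96 ± 0.30 in Control, a difference of -0.89, and Angpt1 gave -5.47 ± 0.37 in OIR and -3.30 ± 0.22 in Control, a difference of -2.17 (SD, n = 3 each). For these 3 genes the groups did not overlap. Each had an exact two-sided permutation p of 0.10, the smallest possible, and 0.23 after adjustment over the 7 genes. With a pseudocount of 1 the difference of Angpt1 was -1.07. Angpt1 is made by pericytes and other perivascular cells, so a scale of endothelial markers says less about it. Some markers also rose little, and they are named after their values were seen. The ratio of OIR to Control means was 1.20 for Flt1, 1.29 for Kdr and 1.35 for Esam. Every other tested marker was at 1.88 or more. Ptprb, at 1.24, lay between Flt1 and Kdr, while Tek, at 0.94, lay below every tested marker. Over all 16 markers with no filter, and over the 13 left without Erg and Robo4, both chosen after seeing the data, the differences were -1.31 and -1.27 for Tek, -0.89 and -0.85 for Ptprb, and -2.16 and -2.12 for Angpt1.

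For the other genes the groups overlapped on the scale of 15 markers. Tie1 was at -0.56 ± 0.22 in OIR and -0.93 ± 0.19 in Control, a difference of 0.37 with an exact permutation p of 0.20, and Angpt2 was at -0.19 ± 0.50 in OIR and -0.51 ± 0.21 in Control, a difference of 0.33 with an exact permutation p of 0.40 (SD, n = 3 each). For Tie1 the difference was 0.38 over the 16 markers and 0.42 over the 13, each with an exact permutation p of 0.10, so whether its groups overlap depended on the marker set. The Angpt2 difference ran from 0.06 without OIR 3 to 0.56 without OIR 2. Angptl2 differed by 0.67 and Angptl4 by -0.21, with exact permutation p of 0.20 and 0.70. The difference of Angptl4 turned to 0.03 without OIR 1. With a pseudocount of 1 these were 0.39 for Angptl2 and -0.40 for Angptl4. The angiopoietin-like genes are not confined to endothelium, so this scale says less about them.

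**Figure D4:**
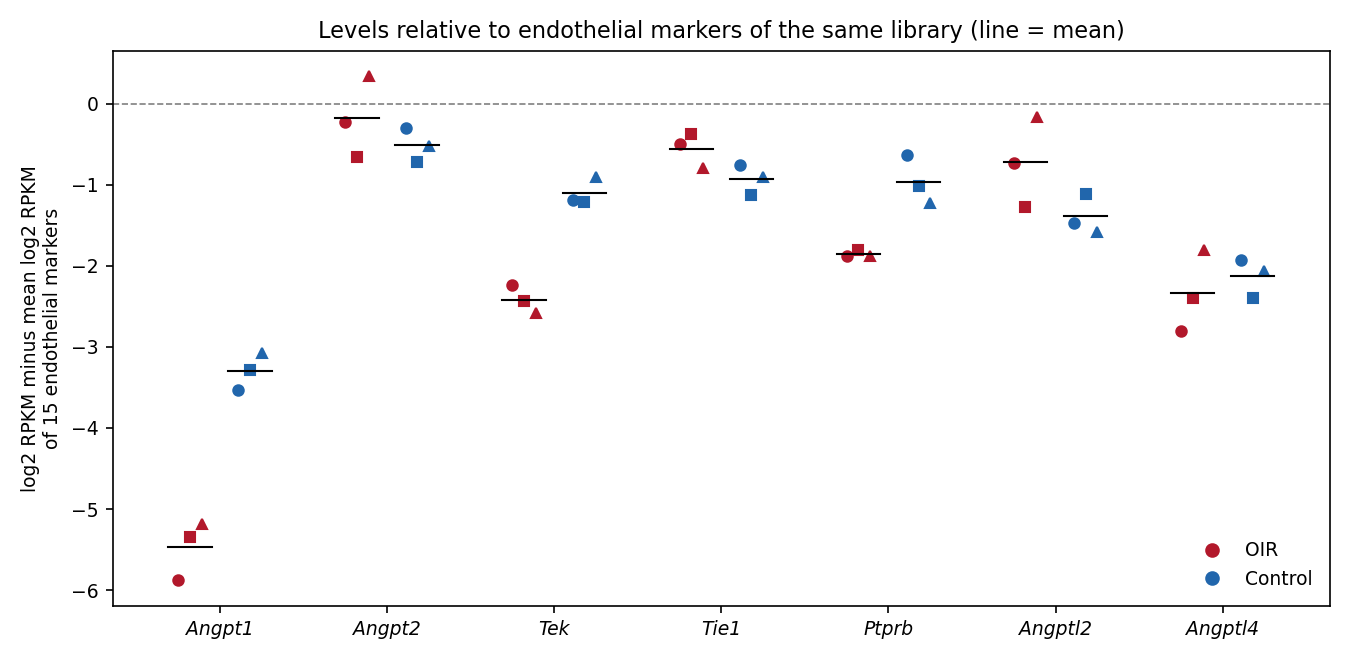
Log2 RPKM of each gene minus the mean log2 RPKM of 15 endothelial markers in the same library, for OIR (red, left) and Control (blue, right), with the group mean as a line. The Tek points lie from -2.58 to -2.24 in OIR and from -1.21 to -0.91 in Control, and the Tie1 points of both groups overlap.

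Mural and glial markers were looked at because pericytes make angiopoietin-1 and other cells can make the angiopoietin-like proteins. Of 7 tested pericyte markers 6 were higher in OIR and none lower, and 1 of the 6, Notch3, was tested through its OIR level alone. The pericyte gene Rgs5 was at 41.0 ± 6.22 RPKM in OIR and 17.2 ± 1.38 RPKM in Control, and the pericyte receptor gene Pdgfrb at 7.57 ± 0.574 RPKM in OIR and 4.61 ± 0.166 RPKM in Control (SD, n = 3 each), with adjusted p of 0.000166 and 0.00109. Angpt1 was on the other side, lower in each OIR library than in each Control library. The summed level of the 9 pericyte markers was 406 to 479 RPKM in OIR and 331 to 393 RPKM in Control, of which Vtn, named after its values were seen, made up 351 to 409 RPKM in OIR and 302 to 366 RPKM in Control. Of 9 tested microglia markers 7 were higher and none lower, with summed levels of 66.2 to 89.5 RPKM in OIR and 24.8 to 27.3 RPKM in Control over 10 markers. Of 4 tested astrocyte markers 2 were higher, and 1 without OIR 1, OIR 3 or any single Control library. Gfap, an intermediate filament gene of astrocytes that stressed Müller glia also switch on, was at 61.3, 28.0 and 74.1 RPKM in OIR 1, OIR 2 and OIR 3, against 8.60, 7.50 and 5.65 RPKM in Control 1, Control 2 and Control 3, with an adjusted p of 0.025. Its OIR libraries stood in the same order as those of Angpt2 and Angptl2. This order was not particular to glial genes. The red cell gene Hba-a1, named after its values were seen, shared it, at 34.9, 19.8 and 37.2 RPKM in OIR 1, OIR 2 and OIR 3. So did the endothelial marker Cdh5, while Cldn5 and Tie1 were highest in OIR 1. None of 4 tested smooth muscle markers passed in limma or in limma-voom, and 1 had an unadjusted p below 0.05, with summed levels over 5 markers of 38.7 to 62.0 RPKM in OIR and 10 to 39.4 RPKM in Control. Of 7 Müller glia markers 2 were higher and 5 lower, with 1 higher when any single library was left out, 2 lower without OIR 1 and 3 lower without Control 1. All 4 tested red cell genes were higher, but 0 to 2 of them without OIR 1, OIR 3 or any single Control library. The part of these cells in the values of Angpt2, Angptl2 and Angptl4 was not tested.

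Among genes that act on or beside the Tie receptors at the cell surface, most of those tested rose. Of 11 listed genes 8 could be tested, 7 were higher and none was lower, against 11.6% and 7.22% of all tested genes. The median log2 fold change was 0.40, against 0.03 over all tested genes and 0.97 over the tested endothelial markers. Itga5, an integrin subunit gene of the fibronectin receptor that angiopoietin-2 can also bind, was at 2.77, 2.28 and 3.01 RPKM in OIR 1, OIR 2 and OIR 3, against 0.746, 0.881 and 0.917 RPKM in Control 1, Control 2 and Control 3. Its Control values all lay below 1 RPKM, so it was tested through its OIR level. Mmp14, whose membrane protease can cut TIE2 from the surface, was at 14.9 ± 0.819 RPKM in OIR and 8.88 ± 0.198 RPKM in Control, with an adjusted p of 0.000289. Cdh5 and Kdr, whose products are further targets of VE-PTP, had log2 fold changes of 1.27 and 0.35. Both are also among the endothelial markers described above. The integrin subunit gene Itgb1 had a log2 fold change of 0.44 and an adjusted p of 0.0131, a call that ended without OIR 1 or Control 1, at 0.0582 and 0.0521. With either of these libraries left out, 4 of the listed genes were higher. Itga5 and Itgb1 also form the part of the listed ANGPTL2 receptors that could be tested.

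Genes of the signal inside the cell were mostly near their Control level. TIE2 signals through PI3-kinase and AKT, which keeps FOXO1, an activator of Angpt2, out of the nucleus. Of 25 listed signalling genes 23 could be tested, and 22 did not pass. Higher was 1 and none was lower, against 11.6% higher and 7.22% lower over all tested genes. The median log2 fold change was 0.03, the same as over all tested genes. Akt1, chosen for mention after its values were seen, was at 47.7 ± 2.11 RPKM in OIR and 45.2 ± 0.746 RPKM in Control, and Foxo1 at 6.43 ± 0.546 RPKM in OIR and 5.63 ± 0.721 RPKM in Control (SD, n = 3 each), with adjusted p of 0.414 and 0.241. The gene called higher was Tnip2, which encodes ABIN-2, an NF-kappaB inhibitor that binds TIE2. It was at 16.6, 9.47 and 17.7 RPKM in OIR 1, OIR 2 and OIR 3, against 6.60, 7.61 and 7.04 RPKM in Control 1, Control 2 and Control 3, with an adjusted p of 0.0492. The Tnip2 call ended without OIR 1, OIR 3 or any single Control library, at adjusted p from 0.0781 to 0.164, and none of the listed genes was then higher without OIR 1, OIR 3, Control 1 or Control 2. Nos3, the endothelial nitric oxide synthase gene, did not pass, at 2.41 ± 0.354 RPKM in OIR and 1.84 ± 0.312 RPKM in Control. Without both lens-rich libraries 2 listed genes were higher and 4 lower.

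Of 10 genes of transcription regulators linked to Angpt2 or to endothelial hypoxia responses, 8 were tested, 4 were higher and none lower, against 11.6% and 7.22% of all tested genes. Ets1, an endothelial ETS factor gene, was at 3.19 ± 0.329 RPKM in OIR and 1.26 ± 0.0519 RPKM in Control (SD, n = 3 each), with an adjusted p of 0.000273. Wwtr1, the gene of the coactivator TAZ, was at 10.2 ± 1.75 RPKM in OIR and 4.93 ± 0.427 RPKM in Control, with an adjusted p of 0.00109. These 2 calls held in every fit run. Yap1 and Epas1 (HIF-2α) passed narrowly, at adjusted p of 0.0441 and 0.0453, and the list count was 2 without OIR 1, OIR 3, Control 1 or Control 3. Hif1a was at 138 ± 7.84 RPKM in OIR and 155 ± 11.9 RPKM in Control and did not pass, at an adjusted p of 0.141, but was lower without Control 3, at 0.0390, and without both lens-rich libraries, at 0.00532.

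Most FOXO target genes did not pass. Of 12 tested, 3 were higher and 1 lower, against 11.6% and 7.22% of all tested genes, and the median log2 fold change was 0.06. Bcl6, a transcription repressor gene, Bcl2l11, the gene of the death protein BIM, and Insr, the insulin receptor gene, had log2 fold changes of 0.40, 0.34 and 0.28, and the ubiquitin ligase gene Fbxo32 had -0.43. Adjusted p were 0.0287, 0.0324, 0.0471 and 0.0193. Without OIR 1, OIR 3 or Control 1 no gene of the list passed in either direction, nor did any with no filter, and without Control 2 there was 1, which was higher. Without Control 3 there were 2 lower genes, and without both lens-rich libraries 4.

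Of 14 listed genes around the lipase function of Angptl4, 8 were tested, 2 were higher, 2 lower and 4 did not pass, against 11.6% higher and 7.22% lower over all tested genes. The median log2 fold change was 0.08. Lpl, the gene of lipoprotein lipase, which ANGPTL4 inhibits, was at 5.40, 6.29 and 5.22 RPKM in OIR 1, OIR 2 and OIR 3, against 7.90, 7.09 and 7.45 RPKM in Control 1, Control 2 and Control 3, with an adjusted p of 0.0173. That call ended without OIR 1, OIR 3 or Control 1, at 0.0813, 0.0713 and 0.0756. The lipid droplet gene Plin2 rose by 0.50 on the log2 scale, with an adjusted p of 0.0105. The nuclear receptor gene Ppard, an activator of Angptl4, had a log2 fold change of 0.40 and an adjusted p of 0.0252, which was 0.104 without OIR 1 and 0.0805 without OIR 3. The list then held 1 higher gene and 1 lower gene without either library, and 1 lower gene without Control 1.

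Further genes of the family lay at differing levels. Angptl6 was at 2.78 ± 0.673 RPKM in OIR and 2.57 ± 0.0835 RPKM in Control (SD, n = 3 each) and did not pass, at an adjusted p of 0.727. Angpt4, the gene of the remaining TIE2 ligand, was at 0.403 ± 0.0461 RPKM in OIR and 0.504 ± 0.158 RPKM in Control (SD, n = 3 each), above Angpt1 in both groups.

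Genes with the most similar pattern were sought among 10685 other tested genes with a mean of at least 2 RPKM, by Pearson's r of log2(RPKM + 1) over the 6 libraries. For Angpt2 these were Nfkb1, Cryzl2, Slc12a4, Nr4a1 and Paxx, with r from 0.997 to 0.994. For Tie1 they were Lmo2, Elp2, Syce2, Jag2 and Cln3, from 0.992 to 0.990, and for Angptl2 they were Fam162a, Slc16a3, Hsd17b2, Map3k1 and Bsg, from 0.999 to 0.998. Tek was nearest to Rcc1, Slc15a2, Guf1, Smn1 and Agk, from 0.977 to 0.941. Ptprb was nearest to Trappc12, Kif13a, Dis3, Map4k5 and Fam114a2, from 0.994 to 0.986, and Angptl4 to Fzd8, Prmt1, Esyt1, Drc3 and Bax, from 0.994 to 0.981. With 6 libraries in 2 groups, such values are shared by many genes and describe these libraries.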

How the data were processed

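Whole-retina RNA was sequenced in 3 OIR and 3 Control libraries, grouped by sample title. The deposited values are RPKM per gene symbol, made by the authors. The submitters' processing notes list TopHat2 2.0.12 and Bowtie2 2.0.6. The counting program, genome build, annotation and strand treatment were not given in the sources used here. The labels' library protocol describes another species, so library type is uncertain. Whole reads were recovered from the RPKM steps within 0.02 of a read, using GENCODE M21 transcript lengths, for 12112 of 12112 tested genes. Depth was 35615501 to 38025623 reads.

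Since the values are not counts, no count test was the main test. Genes with at least 1 RPKM in at least 3 libraries were tested with limma 3.58.1 in R 4.3.3 (trend and robust options, group as the only term, two-sided) on log2(RPKM + 1), with Benjamini-Hochberg adjustment over all 12112 genes and a threshold of 0.05. The test was tried on simulated data. Within-library ratios were tested by exact permutation (scipy 1.17.1). Alternatives were scaling, pseudocount, filter, replicate block, libraries left out and limma-voom on recovered reads. The Tie1 to Tek ratio, 2 other endothelial marker sets and a limma-voom fit on genes with at least 10 reads were chosen after seeing the data.

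Named genes are the 7 genes, up to 5 tested genes with the smallest adjusted p of each pathway list, up to 3 of a marker list, and the 5 most similar genes by correlation. The members and lists were chosen with earlier results of these data known. Results of some listed genes are not reported here. The same-numbered libraries did not deviate together, with correlations of 0.222, -0.440 and -0.414 between the deviations of OIR and Control libraries 1, 2 and 3, so no pairing was used.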

Additional observations from a re-analysis of the deposited data

How the results depend on the processing

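The number of the 7 genes called higher, 4, was 1 to 4 with each library left out in turn, and 2 with limma-voom on genes with at least 10 reads. None was called lower, and 1, Angpt1, with no filter. With the replicate block 3 were higher, since Angptl2 did not pass, at an adjusted p of 0.0661, and all genes called were 1222 higher and 809 lower. Over all genes, 513 to 1754 were higher and 212 to 1293 lower with each library left out. Higher and lower genes numbered 1233 and 1356 with upper-quartile scaling, 1333 and 1260 with lens reads removed, and 1451 and 984 with limma-voom on recovered reads. Lower genes numbered 529 with no filter and 1943 without both lens-rich libraries. Signs turned for Tek without both lens-rich libraries, at 0.03. With each library left out, Angptl6 ran from -0.06 (without OIR 1) to 0.19, and Angptl4 relative to endothelial markers from -0.47 to 0.03 (without OIR 1). The cause was not tested. The low reads of Angpt1 and Angptl4 limit their precision.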

Other observations

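Some partners of these genes lay below the level for testing but had OIR and Control values that did not overlap, and they are named after their values were seen. Gpihbp1, the gene of the capillary protein that anchors lipoprotein lipase, was at 0.886, 0.828 and 2.04 RPKM in OIR 1, OIR 2 and OIR 3, against 0.0326, 0.163 and 0.102 RPKM in Control 1, Control 2 and Control 3. Its reads summed to 116 in OIR and 9 in Control. Itgb3, an integrin subunit gene of a receptor that angiopoietin-2 can bind, was at 0.441 ± 0.101 RPKM in OIR and 0.132 ± 0.0462 RPKM in Control, and Gata2, an endothelial transcription factor gene, was at 0.294 ± 0.0364 RPKM in OIR and 0.0904 ± 0.0524 RPKM in Control (SD, n = 3 each). Lect2, the gene of a secreted TIE1 ligand, went the other way, at 0.104 ± 0.0418 RPKM in OIR and 0.292 ± 0.127 RPKM in Control. Reads per library were few, at 21 to 125 for Itgb3, 7 to 41 for Gata2 and 5 to 35 for Lect2. Groups that did not overlap were common, at 38.7% of all tested genes.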
